A study of Saccharomyces cerevisiae with 61 samples.

Results

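The nuclear genes for the subunits of the mitochondrial respiratory chain were followed in budding yeast under 3 replication-stress agents, in wild type, in strains with RAD53 or NRM1 deleted and in the parent strain of the latter. The set holds 36 genes of 6249 array features: 4 for complex II, 9 for complex III, 2 for cytochrome c, 9 for complex IV and 12 for the ATP synthase. They were chosen by gene symbol, as genes for structural subunits of these complexes, and do not include every such gene. All 36 were on the array, each with 1 probe.

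The respiratory chain sits in the inner mitochondrial membrane. Complex II takes electrons from succinate, complex III passes them from ubiquinol to cytochrome c, and complex IV hands them to oxygen. Complexes III and IV pump protons, and the ATP synthase uses the return of the protons to make ATP. Budding yeast has no proton-pumping complex I, and it can grow by fermentation alone, so the amounts of these transcripts vary widely with carbon source, oxygen and haem. Most of the genes are targets of the HAP complex, in which HAP2, HAP3 and HAP5 bind DNA and HAP4 is the activating and regulated subunit. HAP1 is a haem-dependent activator, and ROX1 is the haem-induced repressor of hypoxic genes. The 2 cytochrome c genes and the 2 genes for subunit 5 of complex IV are pairs of isoforms: CYC1 and COX5A are the forms of aerobic cells with haem, and CYC7 and COX5B those of cells short of oxygen.

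All cells were of strain BY4741, a MATa strain, and were released from mating pheromone arrest, and total RNA was compared on 61 two-colour arrays. Wild-type cells were untreated or held in 0.2 M hydroxyurea (HU), which limits deoxyribonucleotides, in 0.033% methyl methanesulfonate (MMS), which alkylates DNA, or in 50 µM camptothecin (CPT), which traps topoisomerase I on DNA, and were sampled at 30, 45, 60 and 75 min. A strain deleted for the checkpoint kinase gene RAD53 (rad53Δ) was untreated or in HU or MMS at 30 and 75 min. A strain that the labels call galsicΔP, the parent here, was sampled untreated at 0, 40 and 100 min, and the same strain with the corepressor gene NRM1 deleted (nrm1Δ) at 40 and 100 min. Wild type and rad53Δ also have an untreated 0 min sample in replicate 1. No other allele and no growth medium is given in the labels, and what galsicΔP stands for is not explained there. Each combination has 2 replicates except the 0 min samples of wild type and rad53Δ, and nothing says that the replicates were separate cultures, so the p-values measure the spread between these samples only.

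Values are log2 ratios, taken as Cy5 over Cy3, from which the relative level of each RNA extract was worked out. A level of one gene cannot be set against that of another on such arrays. Arrays had medians between -0.03 and 0.02, so a difference is relative to the typical gene, and a change in total mRNA per cell or in the share of living cells cannot be told apart from a change per cell. Differences below are treated minus untreated extracts of the same replicate and time, called pairs, with the fitted mean ± its standard error. In replicate 1 of wild type and rad53Δ no array joins the 2 extracts of a pair. Each agent's times form a chain tied to the untreated 0 min extract, so these pairs are indirect and not independent. In wild-type replicate 2 the MMS and untreated extracts were joined only through HU or CPT extracts. The galsicΔP extracts were hybridised in 2 loops, chains of arrays that share extracts, and the labels' replicate numbers cross them: one loop joins parent replicate 1 with nrm1Δ replicate 2, the other parent replicate 2 with nrm1Δ replicate 1. The nrm1Δ pairs are therefore taken within a loop and join different replicate numbers. A gene is called past the threshold at an adjusted p under 0.05 (limma, Benjamini-Hochberg over all 6249 features). The deleted gene NRM1 was low in nrm1Δ against its parent, at -5.04 to -3.28 log2 units over the 4 pairs. RAD53 could not be checked directly, since no rad53Δ extract was hybridised against wild type. Its relative level ran from -0.11 to 0.08 over the rad53Δ extracts and from -1.36 to 0.89 over those of wild type. This is an indirect view, as each range is relative to its own strain. On 3 arrays title and source name differ in agent or time, and 6 galsicΔP arrays carry contradictory genotype entries. Ratios of this kind do not show whether a marker is present, so the mating type given for the strain was not checked.

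**Figure D1:**
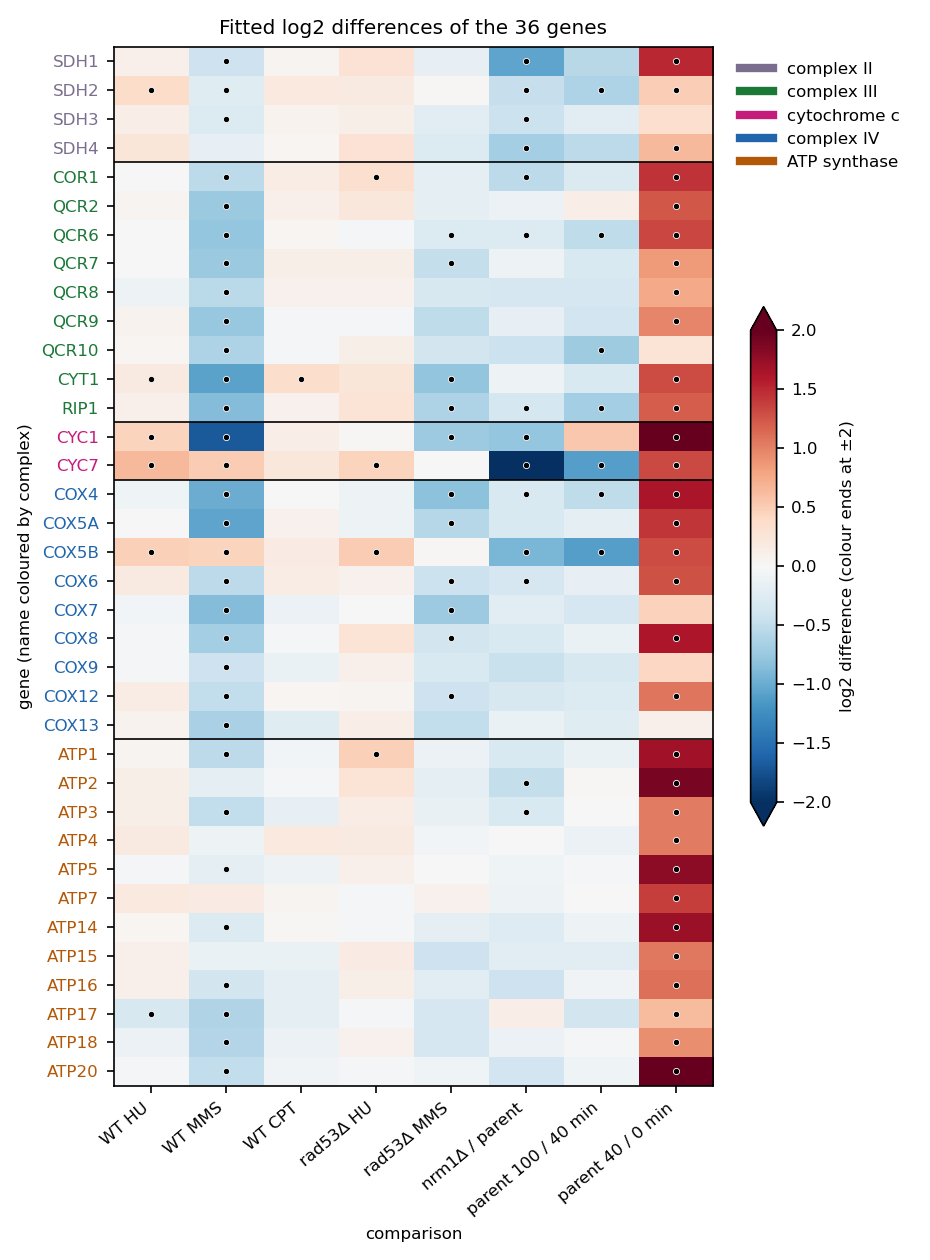
Fitted log2 differences (colour, ending at ±2) of the 36 genes (rows, names coloured by complex) in 8 comparisons (columns); WT is wild type, and a black dot marks an adjusted p under 0.05. The wild-type MMS column holds 29 lower and 2 higher genes, the column of the galsicΔP parent at 40 against 0 min holds 31 higher genes, and the CPT column holds 1 call.

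In untreated wild type, the levels at each time were set against those at 0 min in replicate 1, which is the only replicate with such a sample, so these values have no test. At 30, 45, 60 and 75 min the median of the 36 genes was -0.39, -0.12, -0.16 and 0.03, with 6, 16, 14 and 19 of them above their 0 min level. The median was thus lower at 30 min and back near its starting level at 75 min, but not evenly. At 75 min the medians were -0.31 for complex II, -0.09 for complex III, 0.07 for complex IV and 0.10 for the ATP synthase. CYC1 was above its 0 min level at all times, by 0.85, 1.03, 0.63 and 1.16, while COX5B was below it, at -0.82, -1.11, -1.27 and -0.92. Untreated rad53Δ, also in replicate 1 alone, moved the other way, with a median of -0.07 at 30 min and -0.36 at 75 min. Of the 36 genes 14 and 6 were then above their 0 min level. The differences between agents that follow are read against these moving baselines.

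MMS lowered most of the chain. In wild type 29 of the 36 genes were lower in MMS than in untreated cells and 2 were higher, where 30.2% of all features were lower and 28.0% higher. The median over the 36 genes was -0.52, against -0.02 over all features. Of the 36, 20 were lower in all 8 pairs, as were 13.1% of all features. The 2 replicates gave medians of -0.48 and -0.56, and their mean differences correlated across the 36 genes with r = 0.88, a description across genes of the same arrays. Over all features r was 0.85. The size differed by complex: the medians were -0.26 for complex II, -0.74 for complex III, -0.65 for complex IV and -0.32 for the ATP synthase.

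**Figure D2:**
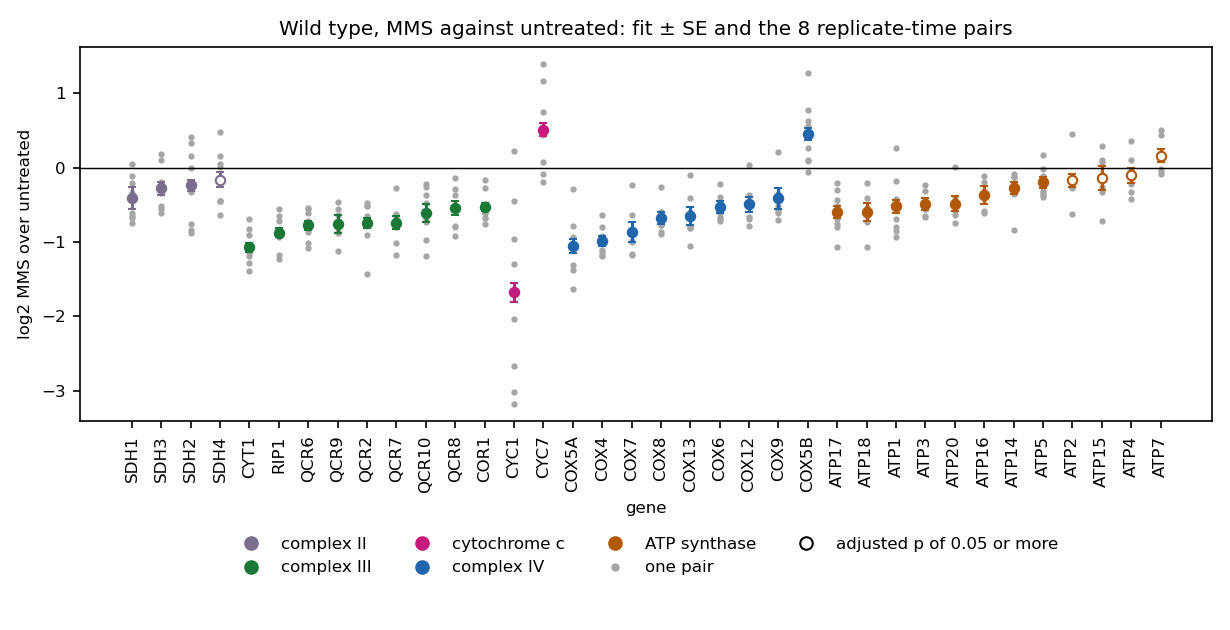
MMS against untreated in wild type for each gene (x axis), as log2 difference (y axis). Coloured points are fitted means with standard errors, open where the adjusted p is 0.05 or more, and grey points are the 8 pairs; all 9 genes of complex III lie below 0 with all their pairs, while CYC7 and COX5B lie above 0.

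All 9 genes of complex III were lower, with fitted differences from -1.07 to -0.53. CYT1 (YOR065W), which encodes cytochrome c1, ranged from -1.39 to -0.69 over the pairs with a median of -1.14, so that no pair reached the untreated level. Its fitted difference was -1.07 ± 0.06 (adjusted p = 4.04e-13), 2.10-fold lower. RIP1 (YEL024W), the Rieske iron-sulfur protein, ranged from -1.24 to -0.55 and had a fitted difference of -0.87 ± 0.06. The core protein genes COR1 and QCR2 stood at -0.53 and -0.74, and QCR6, QCR7, QCR8, QCR9 and QCR10, which encode the small subunits around the catalytic core, between -0.78 and -0.55.

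In complex IV 8 of 9 genes were lower. COX5A (YNL052W) ranged from -1.63 to -0.29 with a median of -1.07 and a fitted difference of -1.06 ± 0.10 (adjusted p = 1.32e-09), 2.08-fold lower. COX4, like the rest a subunit around the mitochondrially encoded core, stood at -0.99 ± 0.07 and COX7 at -0.87 ± 0.13, while COX6, COX8, COX9, COX12 and COX13 lay between -0.68 and -0.41. The remaining gene, COX5B (YIL111W), went the other way. Its pairs ranged from -0.06 to 1.27 with a median of 0.41, and 7 of 8 were above 0, giving 0.45 ± 0.08 (adjusted p = 4.97e-05).

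The cytochrome c genes parted in the same way. CYC1 (YJR048W), the main aerobic form, differed by 0.22, -1.29, -2.04 and -3.02 at the 4 times in replicate 1 and by -0.45, -0.96, -2.67 and -3.18 in replicate 2. Both replicates were thus near the untreated level at 30 min and far below it at 75 min. The fitted differences at the 4 times were -0.12 ± 0.26 (adjusted p = 0.849), -1.13 ± 0.26 (adjusted p = 0.00161), -2.35 ± 0.26 (adjusted p = 1.34e-07) and -3.10 ± 0.26 (adjusted p = 7.64e-10), the last an 8.57-fold lower level. Averaged over the times CYC1 fell by 1.67 ± 0.13 on the log2 scale (adjusted p = 5.16e-11). Against its own 0 min sample in replicate 1, CYC1 in MMS was 1.07 higher at 30 min but stood at -1.86 by 75 min, when the untreated cells were at 1.16.

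CYC7 (YEL039C), the other cytochrome c gene, differed by -0.09, -0.19, 0.55 and 1.39 at the same times in replicate 1 and by 0.08, 0.74, 0.44 and 1.16 in replicate 2. It was close to untreated at 30 min and above it in both replicates from 60 min. The fitted difference was 0.51 ± 0.09 over all times (adjusted p = 2.34e-05) and 1.28 ± 0.18 at 75 min (adjusted p = 2.12e-06), 2.42-fold higher. COX5B followed a like course, at 0.77 and 1.27 in the replicates at 75 min, where its fitted difference was 1.02 ± 0.17 (adjusted p = 2.02e-05). COX5A was at -1.06 and -1.63 at the same time. Without 75 min the fitted differences of CYC7 and COX5B over the other times were 0.25 and 0.26. Members of an isoform pair are similar in sequence, and hybridisation of one to the other's probe was not tested.

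**Figure D3:**
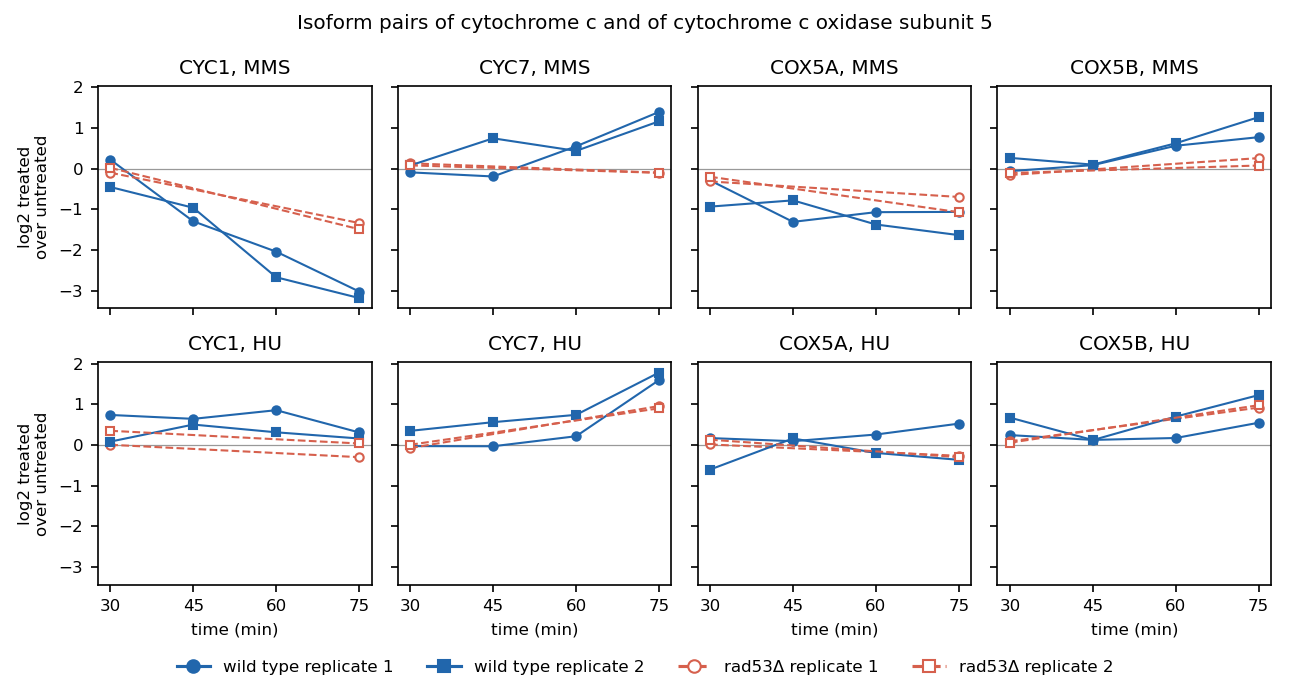
Log2 treated over untreated (y axis) against time in minutes (x axis) for CYC1, CYC7, COX5A and COX5B in MMS (upper row) and HU (lower row), with filled blue symbols for the 2 wild-type replicates and open red symbols for the 2 rad53Δ replicates. In wild-type MMS CYC1 reached -3.02 and -3.18 at 75 min while CYC7 reached 1.39 and 1.16; in rad53Δ the same values were -1.34 and -1.49 for CYC1 and -0.10 and -0.10 for CYC7.

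Complex II, which also is an enzyme of the citric acid cycle, had lower genes at the earlier times, 1 of them at 30 min and 3 at 45 min, but 0 later, and SDH2 was higher at 75 min. Averaged over times 3 of its 4 genes were lower, SDH1 (the flavoprotein) at -0.41 ± 0.14, SDH2 (the iron-sulfur protein) at -0.24 ± 0.07 and SDH3 (a membrane anchor) at -0.28 ± 0.09, and the other anchor gene SDH4 stood at -0.16 ± 0.10 (adjusted p = 0.175). SDH2 differed by -0.84 and -0.75 at 30 min and by 0.32 and 0.41 at 75 min in the replicates. All pairs were below the untreated level at 30 and 45 min and both were above it at 75 min. The change of its response from 30 to 75 min was 1.16 ± 0.20 (adjusted p = 0.000149).

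In the ATP synthase 8 of the 12 members were lower, with none of the 12 beyond -0.60. ATP17 and ATP18, of the membrane part, stood at -0.60 ± 0.08 and -0.59 ± 0.12, and ATP1 and ATP3, the alpha and gamma subunits of the catalytic head, at -0.52 ± 0.09 and -0.49 ± 0.08. ATP20, ATP16, ATP14 and ATP5 (the subunit that confers oligomycin sensitivity) lay between -0.48 and -0.20. Those not past the threshold were ATP2 (the catalytic beta subunit, -0.17), ATP15 (epsilon, -0.14), ATP4 (-0.10) and ATP7 (0.16), the last 2 of the peripheral stalk.

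By time, 12 members were lower and 0 higher at 30 min, where 4.51% and 6.64% of all features were. At 45 min 21 were lower and 0 higher, against 14.3% and 14.5%. At 60 min 22 were lower and 2 higher, against 17.9% and 19.2%, and at 75 min 16 were lower and 3 higher, against 20.7% and 21.4%. The genes past the threshold at 30 min were 8 of complex III, 3 of complex IV and SDH2. QCR2, QCR6, QCR7, CYT1, RIP1, COX4, COX5A and COX8 were lower at all 4 times. Complex III had its lowest median at 45 min, -0.92, and stood at -0.51 at 75 min, while complex IV stood at -0.65, -0.69 and -0.70 at 45, 60 and 75 min. The change from 30 to 75 min passed the threshold for 4 members (CYC1 by -2.98 ± 0.36, and SDH2, CYC7 and COX5B upwards), where 22.7% of all features changed. Without wild-type replicate 2 the count at 30 min was 7, without replicate 1 or 2 that at 60 min was 14 or 13, and without replicate 1 8 members changed between 30 and 75 min.

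Genes around the chain did not all follow it. HAP4 (YKL109W) was lower in all 8 pairs, from -1.94 to -0.42 with a median of -1.25, and its fitted difference was -1.25 ± 0.12 (adjusted p = 1.63e-09). HAP1 stood at -0.55 ± 0.07, ROX1 at -0.49 ± 0.09 and HAP3 at 0.20 ± 0.06, and of 9 such regulators 7 were lower and 1 higher. Of the 7 respiratory genes of the mitochondrial genome 5 were lower with a median of -1.07, COX1 reaching -2.07 ± 0.20. Assembly factors showed no common direction. For complexes II and III 4 were higher (SDH8 at 0.69) and 3 lower (CBP4 at -0.56) of 16. For complex IV 5 were higher (COA1 at 0.93) and 9 lower (COX19 at -0.82) of 28. The list for the ATP synthase also holds regulators and ATP19, a subunit gene that is not a member. In that list 5 were higher (STF2 at 1.37) and 4 lower (ATP19 at -0.71) of 16. The 12 measured genes of the citric acid cycle had 4 higher (LSC1 at 0.28) and 2 lower, with aconitase, ACO1, at -1.15 ± 0.17. Haem synthesis had 3 higher (HEM12 at 0.37) and 3 lower of 8, its first enzyme, HEM1, at -0.90 ± 0.10. Of 10 genes listed as other electron donors 3 were higher (GUT2 at 0.60) and 4 lower. The largest fall was that of CYB5, cytochrome b5, at -1.66 ± 0.12. The list is a loose one, since CYB5 and URA1 do not pass electrons to the chain. Of 12 mitochondrial carriers and porins 3 were higher (POR1 at 0.56) and 4 lower, with the phosphate carrier, MIR1, at -0.67. Of 12 genes listed as hypoxic and anaerobic 8 were lower, the fatty acid desaturase gene OLE1 at -1.98 ± 0.14, and 1 was higher, CPR1 at 0.81. The listed genes thus did not rise as a group beside CYC7 and COX5B. This list too is loose, since it holds CPR1, a cyclophilin gene, and PET9, that of the main ADP/ATP carrier.

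Cell cycle and stress genes moved in the same extracts. General stress genes were higher for 19 of 20, with a median of 1.01 and DDR2 at 2.17 ± 0.13, and the mitotic CLB2 cluster was lower for 15 of 15, with a median of -1.18 and SWI5 at -2.07 ± 0.21. Averaged over the times, markers of the mating types moved less, with 3 of 5 MATa genes lower (MFA2 at -0.48) and 1 of 2 MATalpha genes higher (STE3 at 0.43). At 75 min alone 3 of 5 MATa genes were lower, with a median of -0.63 and the lowest at -1.70. The part of the stress, cell cycle and mating type genes in the values of the respiratory genes was not tested.

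HU left most of the chain near the untreated level. In wild type 5 members were higher and 1 lower, against 15.8% and 17.3% of all features, and the median was 0.07. CYC7 ranged from -0.03 to 1.78 over the 8 pairs with a median of 0.46, the values at 75 min being 1.60 and 1.78, and its fitted difference was 0.65 ± 0.09 (adjusted p = 4.29e-06). COX5B was above untreated in all 8 pairs, from 0.12 to 1.23, and differed by 0.48 ± 0.08 (adjusted p = 8.69e-05). CYC1 also was above untreated in all 8 pairs, from 0.08 to 0.86 with a median of 0.41, and differed by 0.45 ± 0.13 (adjusted p = 0.00806). COX5A ranged from -0.60 to 0.53, below untreated in 3 pairs and above it in 5, and differed by 0.01 ± 0.10 (adjusted p = 0.967). SDH2 at 0.36 ± 0.07 and CYT1 at 0.18 ± 0.06 were the other rises, and ATP17, a subunit of the ATP synthase membrane part, was the only fall at -0.32 ± 0.08 (adjusted p = 0.0045). The 2 replicates gave medians of 0.12 and -0.01, so the sign of the median rests on replicate 1. Their means had the same sign for 19 of the 36 genes (r = 0.47 across these genes and 0.68 over all features). CYC1 and ATP17 did not pass without wild-type replicate 1 (adjusted p = 0.0975 and 0.341), nor COX5B without replicate 2 (adjusted p = 0.0515). Without 75 min CYC7 stood at 0.30. With 1 value per replicate, the replicate as block, 3 members passed.

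The HU response changed between 30 and 75 min for CYC7, by 1.53 ± 0.25 (adjusted p = 0.000422), and for SDH2, by 0.79 ± 0.20 (adjusted p = 0.0156), while 8.07% of all features changed. Without either wild-type replicate 1 member changed. HAP4 was lower in HU in 7 of 8 pairs, from -1.35 to 0.05, with a fitted difference of -0.80 ± 0.12 (adjusted p = 1.15e-05). The members were not lower as a group, and a link between them and HAP4 was not tested. HAP1 and ROX1 stood at -0.32 ± 0.07 and -0.33 ± 0.09. Of the citric acid cycle genes 6 of 12 were higher (LSC2 at 0.62) and 0 lower. Stress genes were higher for 18 of 20 (DDR2 at 1.81), as in MMS, and 14 of 15 genes of the CLB2 cluster were lower (HOF1 at -1.58).

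The direct contrast of MMS with HU at matched times placed 31 of the 36 members lower in MMS and 0 higher, where 20.7% and 20.5% of all features were, with a median of -0.55. CYC1 ranged from -3.34 to -0.52 over the pairs and differed by -2.13 ± 0.13 (adjusted p = 2.17e-12), 4.36-fold. CYT1 ranged from -1.62 to -0.75 and differed by -1.25 ± 0.06 (adjusted p = 6.9e-14), and COX5A, from -1.59 to -0.33, by -1.06 ± 0.10 (adjusted p = 3.64e-09). For these 3 genes no MMS extract reached the HU extract of its pair. The isoforms linked to low oxygen gave small differences, CYC7 at -0.14 ± 0.09 (95% interval -0.32 to 0.04) and COX5B at -0.03 ± 0.08 (95% interval -0.20 to 0.14). ATP5, ATP7 and ATP15 were the other members that did not pass. HAP4 stood at -0.45 ± 0.12 in MMS against HU (adjusted p = 0.00294). The mitochondrial genome's respiratory genes were lower for 5 of 7 (COX1 at -1.57), and stress genes were higher for 9 (HSP42 at 0.93) and lower for 1 (HSP12 at -0.53) of 20.

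CPT gave 1 call among the members. CYT1 was above untreated in 7 of 8 pairs, from -0.02 to 0.75 with a median of 0.36, and differed by 0.36 ± 0.06 (adjusted p = 0.00234). In all, 2.48% of features were higher and 3.54% lower. CYC1 stood at 0.13 ± 0.13, CYC7 at 0.22 ± 0.09, COX5A at 0.09 ± 0.10 and COX5B at 0.16 ± 0.08, each with 5 pairs above and 3 below the untreated level. The replicates did not share a pattern: their means had the same sign for 10 of the 36 genes and r = 0.10 across them, with medians of -0.11 and 0.13. This was not particular to these genes, since r over all features was 0.04. CYT1 did not pass with the replicate as block, without the arrays of conflicting labels or without wild-type replicate 1, and without replicate 2 9 members passed, 2 higher and 7 lower. No member's response changed past the threshold between 30 and 75 min, where 1.42% of all features did. Among listed genes, COB of the mitochondrial genome stood at -1.15 ± 0.26 and NCA3 at 0.66 ± 0.12.

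In rad53Δ, which lacks the checkpoint kinase, few members changed in HU: 4 were higher and 0 lower, against 3.97% and 3.18% of all features, with a median of 0.12. COX5B differed by 0.09 and 0.06 at 30 min and by 0.92 and 0.98 at 75 min in replicates 1 and 2, giving 0.51 ± 0.12 (adjusted p = 0.00762). CYC7 differed by -0.07 and 0.01 at 30 min and by 0.96 and 0.90 at 75 min, giving 0.45 ± 0.12 (adjusted p = 0.0284). Both were near untreated at 30 min and above it in both replicates at 75 min. ATP1 ranged from 0.20 to 0.80 over the 4 pairs (0.48 ± 0.12, adjusted p = 0.014) and COR1 stood at 0.33 ± 0.08. CYC1 ranged from -0.30 to 0.35 and COX5A from -0.30 to 0.13, with fitted differences of 0.02 ± 0.18 and -0.10 ± 0.14. These calls rest on both replicates: without replicate 1 or without replicate 2 of rad53Δ 0 members passed.

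In MMS, rad53Δ cells had 11 members lower and 0 higher, against 4.78% and 8.59% of all features, and a median of -0.29. Of the 36, 23 were lower in all 4 pairs, as were 20.2% of all features. The calls were 4 of complex III (QCR6, QCR7, CYT1, RIP1), CYC1, and 6 of complex IV (COX4, COX5A, COX6, COX7, COX8, COX12), and none of complex II or the ATP synthase. COX4 ranged from -1.36 to -0.40 (-0.82 ± 0.10, adjusted p = 1.84e-06), CYT1 from -1.35 to -0.43 (-0.79 ± 0.09, adjusted p = 6.81e-07) and COX7 from -1.10 to -0.38 (-0.73 ± 0.18, adjusted p = 0.00783). For each of these 3 genes both values at 75 min were lower than both at 30 min. CYC1 differed by -0.10 and 0.02 at 30 min and by -1.34 and -1.49 at 75 min (-0.73 ± 0.18, adjusted p = 0.00768), and COX5A by -0.31 and -0.20 and then by -0.70 and -1.07 (-0.57 ± 0.14, adjusted p = 0.00568). CYC7 lay between -0.10 and 0.13 and COX5B between -0.16 and 0.26, with fitted differences of 0.00 ± 0.12 and 0.02 ± 0.12. HAP4 was lower in all 4 pairs (-0.57 ± 0.16, adjusted p = 0.0203) and HAP1 stood at -0.31 ± 0.10 (adjusted p = 0.0475), while ROX1 was above untreated in all 4 pairs (0.46 ± 0.12, adjusted p = 0.0133). Without replicate 1 or without replicate 2 of rad53Δ 3 members passed.

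MMS set against HU in rad53Δ left 21 members lower and 0 higher, where 8.35% and 11.2% of all features were. CYT1 ranged from -1.67 to -0.63 and differed by -1.03 ± 0.09 (adjusted p = 9.09e-09), RIP1 by -0.89 ± 0.09 (adjusted p = 1.49e-07) and CYC1 by -0.75 ± 0.18 (adjusted p = 0.00451). COX5A, COX5B and CYC7 were lower too, by -0.47 ± 0.14, -0.49 ± 0.12 and -0.45 ± 0.12 (adjusted p = 0.0177, 0.00389 and 0.0128). For CYC7 only the values at 75 min, -1.06 and -1.004, were below 0. With 1 replicate of rad53Δ left out 7 or 6 members passed. HAP4 stood at -0.68 ± 0.16.

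Whether the response differs between the strains was tested directly, over 30 and 75 min. For MMS 1 member responded more positively in rad53Δ and 2 more negatively, where 3.92% and 3.44% of all features did. CYC1 averaged -1.61 in wild type and -0.73 in rad53Δ, a difference of 0.88 ± 0.26 (adjusted p = 0.0356). CYC7 averaged 0.64 in wild type and 0.00 in rad53Δ (-0.63 ± 0.18, adjusted p = 0.0275), and COX5B 0.56 and 0.02 (-0.54 ± 0.17, adjusted p = 0.0452). The other 33 members had no call. For COX5A the difference was 0.41 ± 0.19 (95% interval 0.01 to 0.81, adjusted p = 0.235), and all 9 genes of complex III lay between 0.09 and 0.37. That average joins unlike times. At 30 min all 9 were above 0, with a median of 0.51, while at 75 min 7 were below 0, with a median of -0.23. The medians of complex II were 0.36 and -0.34 at these times. No gene of either complex passed at either time. The smaller number of calls in rad53Δ is therefore not shown to be a smaller response of those genes.

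**Figure D4:**
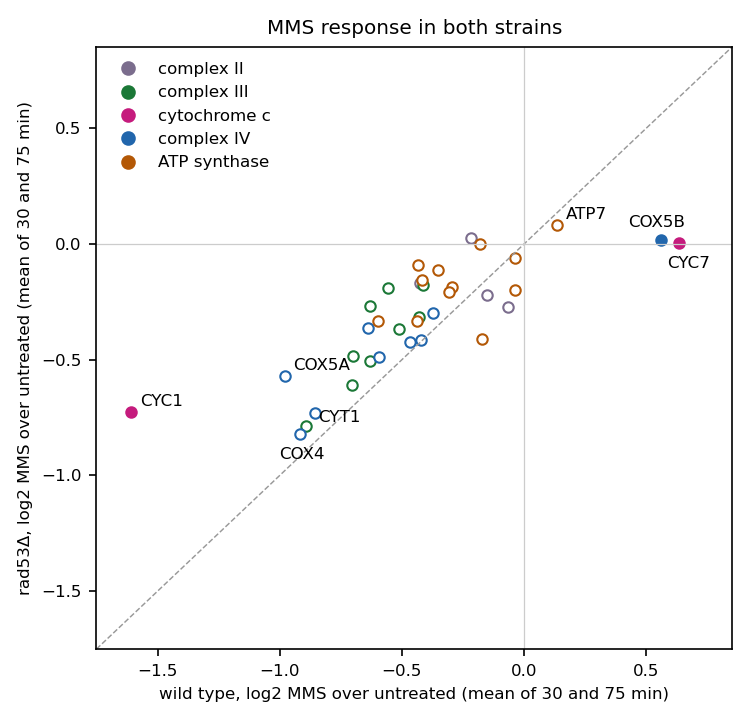
Mean log2 MMS over untreated at 30 and 75 min in wild type (x axis) and rad53Δ (y axis) for the 36 genes, filled where the difference between strains had an adjusted p under 0.05; the dashed line marks equal responses. CYC1 lies at -1.61 and -0.73, CYC7 at 0.64 and 0.00, and COX5B at 0.56 and 0.02.

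At 75 min alone, a test added after these values were seen, the same 3 members passed and 9.73% of all features did. CYC1 fell to -3.02 and -3.18 in wild type and to -1.34 and -1.49 in rad53Δ (1.69 ± 0.36, adjusted p = 0.00277). CYC7 stood at 1.39 and 1.16 against -0.10 and -0.10 (-1.38 ± 0.25, adjusted p = 0.000582), and COX5B at 0.77 and 1.27 against 0.26 and 0.08 (-0.85 ± 0.23, adjusted p = 0.0182). At 30 min no member passed, with adjusted p-values of 1, 0.997 and 0.952 for these genes. In the average over both times, 0 members passed without rad53Δ replicate 1, without rad53Δ replicate 2, without the 3 arrays of conflicting labels or with arrays scaled to equal spread, and 1 passed with the replicate as block. COX5B did not pass without wild-type replicate 2 either (adjusted p = 0.254). The stress genes moved with CYC7 and COX5B: 14 of 20 responded less to MMS in rad53Δ, with a median of -0.81 and DDR2 at -2.79 ± 0.26. ROX1 (0.71 ± 0.18) and, of the CLB2 cluster, 4 of 15 genes (SWI5 at 1.60) responded more positively. Their part was not tested.

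For HU the difference between strains passed for 0 of 36 members, where 1.41% and 1.39% of all features were higher and lower (limma). CYC7 differed by -0.48 ± 0.18 (95% interval -0.84 to -0.11, adjusted p = 0.17), CYC1 by -0.30 ± 0.26, COX5B by -0.16 ± 0.17 and COX5A by -0.04 ± 0.19. Without wild-type replicate 1 or 2 1 member passed, and 4 passed with limma on the array ratios.

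Between 0 and 40 min in the galsicΔP parent most of the chain rose: 31 of 36 members were higher at 40 min and 0 lower, against 28.8% and 28.5% of all features, with a median of 1.23. All 12 genes of the ATP synthase rose, as did 8 of 9 of complex III, 6 of 9 of complex IV, 3 of 4 of complex II and both of cytochrome c. The 40 min extract of the first loop was 4.42 and 4.62 above the 0 min extracts for CYC1, and the fitted difference was 4.37 ± 0.27 (adjusted p = 5.98e-13), 20.7-fold. ATP20, a subunit that holds ATP synthase dimers together, was 2.66 and 1.98 above (2.32 ± 0.22, adjusted p = 2.57e-09), and ATP2, the catalytic beta subunit, 1.70 and 2.17 above (1.89 ± 0.18, adjusted p = 1.66e-09). Both isoforms of each pair rose: CYC7 by 1.32 ± 0.19 (adjusted p = 1.53e-06), COX5A by 1.44 ± 0.21 (adjusted p = 1.78e-06) and COX5B by 1.30 ± 0.18 (adjusted p = 7.38e-07). SDH3, QCR10, COX7, COX9 and COX13 did not pass, at 0.10 to 0.46. The 2 differences of a gene share 1 extract at 40 min.

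HAP4 rose by 2.18 ± 0.25 (adjusted p = 4.12e-08) and HAP3 by 1.48 ± 0.13 over the same time, while HAP1 stood at -0.63 ± 0.16 and ROX1 at -0.29 ± 0.19 (adjusted p = 0.195). The citric acid cycle rose for 10 of 12 genes (IDH2 at 4.77 ± 0.16), haem synthesis for 7 of 8 (HEM12 at 2.10) and carriers for 8 of 12 (PET9, the main ADP/ATP carrier, at 3.15). The respiratory genes of the mitochondrial genome went the opposite way, with 6 of 7 lower and a median of -1.35 (COX2 at -1.72 ± 0.53). MATa markers were lower for 4 of 5 (STE2 at -3.08) and stress genes for 7 of 20 (HSP26 at -3.70). The labels do not say what else changed between these times, and the part of any such change was not tested. The sizes depend on the array scale. With all arrays scaled to equal spread, which by construction shrinks the differences on arrays of wide spread, 15 members were higher and their median was 0.51. CYC1 then stood at 1.54, ATP20 at 0.92, ATP2 at 0.66 and COX5B at 0.77, and COX5A at 0.60 and CYC7 at 0.87 did not pass (adjusted p = 0.119 and 0.0518). Over all features that scale gave 475 higher and 276 lower in place of 1802 and 1781.

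**Figure D5:**
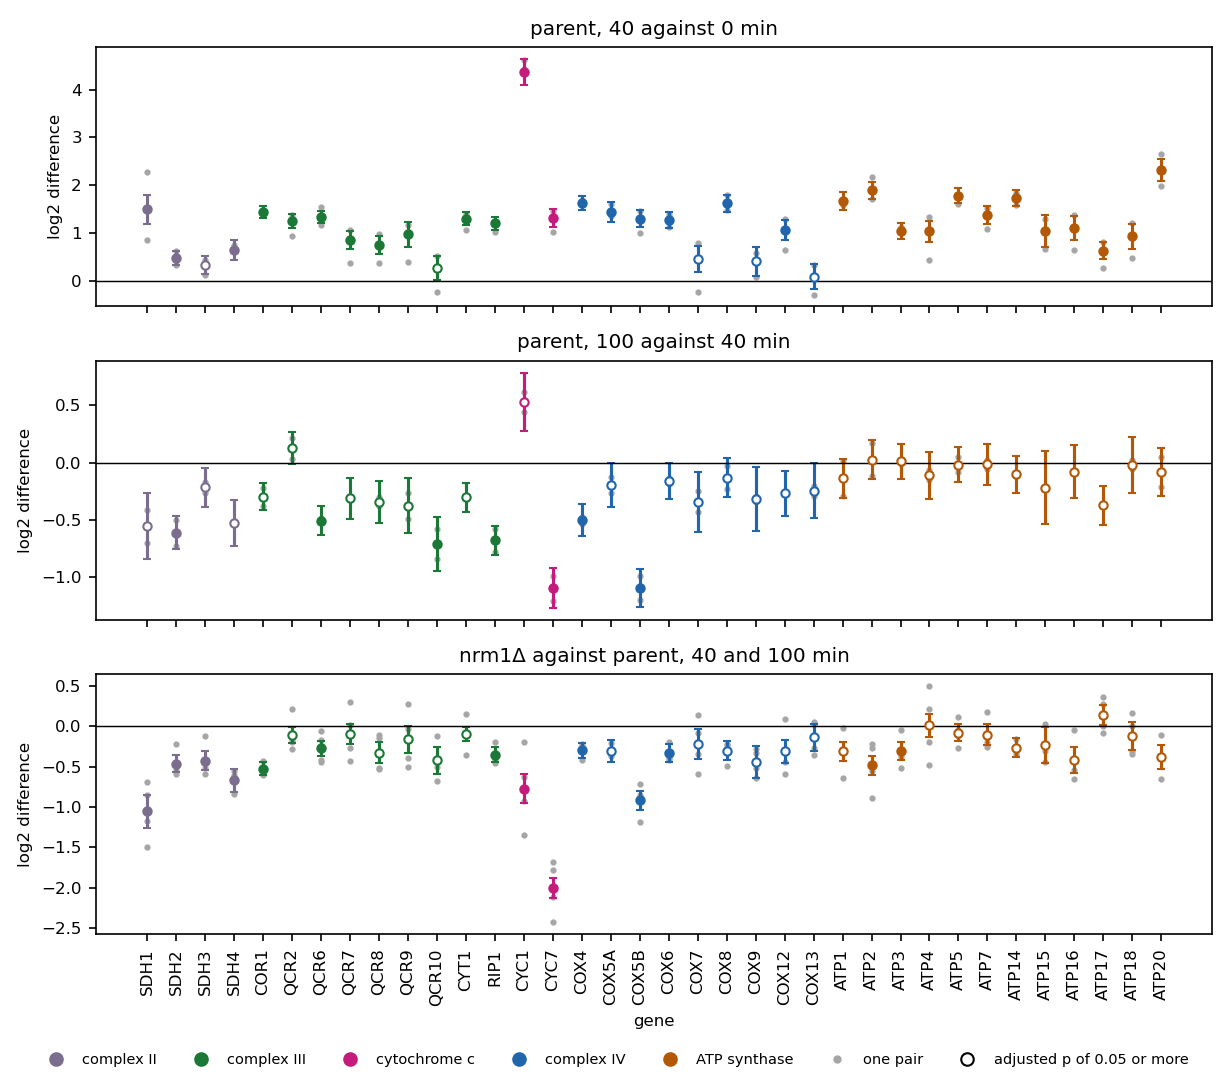
Log2 differences (y axis, a different range in each panel) of the 36 genes (x axis, coloured by complex) in untreated galsicΔP cells: parent at 40 against 0 min, parent at 100 against 40 min, and nrm1Δ against parent. Points are fitted means with standard errors, open where the adjusted p is 0.05 or more, and grey points are pairs; CYC1 stands at 4.37 in the first panel and CYC7 at -2.005 in the last.

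From 40 to 100 min in the parent 7 members fell and 0 rose, where 14.4% and 13.5% of all features did. COX5B differed by -0.99 and -1.20 in the 2 loops (-1.10 ± 0.17, adjusted p = 1.72e-05), CYC7 by -0.99 and -1.20 (-1.10 ± 0.18, adjusted p = 3.76e-05) and QCR10, a small subunit of complex III, by -0.58 and -0.84 (-0.71 ± 0.24, adjusted p = 0.0265). SDH2, QCR6, RIP1 and COX4 were the other falls, at -0.68 to -0.50, and no gene of the ATP synthase passed. The aerobic isoforms did not pass: CYC1 was 0.44 and 0.62 higher (0.53 ± 0.26, adjusted p = 0.129) and COX5A stood at -0.19 ± 0.19 (adjusted p = 0.517). HAP4 stood at -0.47 ± 0.23 (adjusted p = 0.143). Stress genes were lower for 16 of 20 (DDR2 at -2.43) and MATa markers for 4 of 5 (MFA1 at -3.60 ± 0.25), and their part was not tested. With arrays scaled to equal spread CYC7 stood at -0.58 and did not pass (adjusted p = 0.163), and 2 members passed. QCR10 did not pass with that scale, with the strain fitted alone, without the arrays of conflicting labels or without either loop (adjusted p = 0.0635 to 0.393), and without the second loop 2 members passed.

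Deletion of NRM1 went with lower levels of 14 members and higher levels of 0, over 40 and 100 min, where 17.2% and 14.5% of all features were lower and higher. The median was -0.31. CYC7 was lower by far the most, at -2.12 and -1.79 at 40 and 100 min in the first loop and -2.43 and -1.68 in the second (-2.005 ± 0.12, adjusted p = 2.09e-11), 4.01-fold. SDH1 stood at -1.50, -1.17, -0.85 and -0.70 in the same order (-1.05 ± 0.20, adjusted p = 0.000334) and COX5B at -0.85, -0.91, -1.19 and -0.72 (-0.92 ± 0.12, adjusted p = 2.47e-06). All 4 pairs of these 3 genes were below the parent. CYC1 ranged from -1.34 to -0.20 (-0.78 ± 0.18, adjusted p = 0.00204), and COX5A from -0.37 to -0.21 without passing (-0.31 ± 0.14, adjusted p = 0.0903).

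By complex, all 4 genes of complex II were lower, 3 of complex III (COR1, QCR6, RIP1), both of cytochrome c, 3 of complex IV (COX4, COX5B, COX6) and 2 of the ATP synthase (ATP2, ATP3). Among neighbours of the chain, 10 of 12 citric acid cycle genes were lower with a median of -0.90 (ACO1 at -1.62 ± 0.24). Of the 10 genes listed as electron donors 7 were lower (CYB2 at -1.25). Assembly factors of complex IV were lower for 15 of 28 (COX15 at -0.79). Those of complexes II and III were lower for 10 of 16 (CYC3, which attaches haem to cytochrome c, at -0.87). The 7 mitochondrially encoded genes had no call. HAP4 stood at -0.42 ± 0.16 (adjusted p = 0.0543), HAP1 at -0.39 ± 0.10 (adjusted p = 0.006) and ROX1 at -0.18 ± 0.12. In the same extracts stress genes were lower for 16 of 20, with a median of -0.76 (GPH1 at -2.40), and MATa markers for 4 of 5, with a median of -1.74 (MFA2 at -2.26 ± 0.18). Their part in the lower levels of the respiratory genes was not tested. With arrays scaled to equal spread 3 members passed, CYC7 at -1.25, COX5B at -0.56 and SDH1 at -0.55, while CYC1 did not (adjusted p = 0.128), and over all features 79 were higher and 189 lower in place of 905 and 1072. With 1 loop left out 7 or 9 members passed, and CYC1 did not pass without the first (adjusted p = 0.161). SDH1 had an adjusted p of 0.0501 with the strain fitted alone.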

How the data were processed

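The deposited values, one table of 6266 probes by 61 arrays with 0 missing, were taken as log2 ratios of Cy5 over Cy3 RNA. The authors' averaged image files and limma, with no version, are all that the labels and the submitters' processing notes name, and the sources used here do not give background correction, normalisation or log base. Probes were named from the platform annotation (5608 matched to assembly R64), giving 6249 features. Relative levels of 56 extracts were obtained by least squares with a dye term within each strain set. Then limma 3.58.1 (R 4.3.3) was fitted to 54 extracts with group terms and 14 blocks of replicate and time or loop (20 residual and 4.41 prior degrees of freedom). In simulated arrays known changes were recovered, with p-values of unchanged genes somewhat too small. The simulated noise was independent between extracts, so it cannot show what happens where the times of a replicate vary together. Median standard errors were 0.08 in wild type and 0.12 in rad53Δ and nrm1Δ. The number of arrays limits the precision, and spot intensities were not analysed here. Where labels conflict, untreated 0 min, the title's genotype and 30 min were used. The members and gene lists were chosen with earlier results of these data known. Named in full are both isoform pairs, the 3 largest rises and falls per main comparison, the extremes of each further list, HAP4, HAP1 and ROX1. Wild-type replicate 2 has no array between times, so replicate and time stay together as a block. Python 3.11.15 and matplotlib 3.10.9 drew the figures.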

Additional observations from a re-analysis of the deposited data

Results flagged for a closer look

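Some responses differed between strains or times by a test of the difference itself. The MMS response over 30 and 75 min differed between rad53Δ and wild type for CYC1 by 0.88 (adjusted p = 0.0356), for CYC7 by -0.63 (adjusted p = 0.0275) and for COX5B by -0.54 (adjusted p = 0.0452) by limma. In wild type the HU response at 75 min stood above that at 30 min by 0.79 for SDH2 and by 1.53 for CYC7. The MMS response at 75 min stood above that at 30 min by 1.16 for SDH2, by 1.28 for CYC7 and by 0.92 for COX5B, and for CYC1 it differed by -2.98. These comparisons of HU and MMS share the untreated extracts. The shares of all features that passed the same tests, given above, were near or above those of the members. With arrays scaled to equal spread, or without the arrays of conflicting labels, 0 members passed for the strain difference in MMS.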

How the results depend on the processing

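The members called in wild type for MMS against untreated (31), for MMS against HU (31) and for MMS at 45 and 75 min stayed within 1.5 times of these counts in all alternatives run. The cause of the other shifts was not tested. Calls over all features shift too and are not given for most settings. There a changed member count cannot be told from a change over the whole array. Scaling to equal spread gave 235 features higher and 282 lower for CPT, and 304 and 234 for rad53Δ HU. It gave 79 and 71 for the strain difference in MMS, and 411 and 531 for 100 against 40 min. With arrays scaled to equal spread the number of members called was 2 for CPT, 2 for rad53Δ HU, 0 for the strain difference in MMS, 3 for nrm1Δ, 2 for 100 against 40 min, 15 for 40 against 0 min, 19 lower for MMS at 30 min and 11 for the change of the MMS response with time. With limma on array ratios it was 5 for CPT, 7 for rad53Δ HU, 19 for rad53Δ MMS, 4 for the strain difference in HU, 27 for nrm1Δ, 18 for 100 against 40 min, 20 for MMS at 30 min, and 8 and 8 for the change with time in HU and MMS. A dye term per slide in that fit gave 8 for CPT, 0 for rad53Δ HU, 19 for rad53Δ MMS, 12 for rad53Δ MMS against HU, 21 for 100 against 40 min, 20 for MMS at 30 min, and 8 and 9 for the change with time in HU and MMS. Fitting each strain alone gave 11 for rad53Δ HU and 23 for rad53Δ MMS. One value per replicate and treatment with the replicate block gave 3 for HU, 0 for CPT and 1 for the strain difference in MMS, and moved no other count by over 1.5 times. Without the arrays of conflicting labels the counts were 0 for CPT, 1 for rad53Δ HU and 0 for the strain difference in MMS, and without 30 min CPT had 3. Leaving out 1 replicate at a time gave 1 to 9 for CPT (the 9 being 2 higher and 7 lower), 0 to 0 for rad53Δ HU, 3 to 3 for rad53Δ MMS, 6 to 7 for rad53Δ MMS against HU, 0 to 1 for the strain difference in HU, 0 to 4 for that in MMS, 7 to 9 for nrm1Δ, 2 to 5 for 100 against 40 min, 7 to 15 lower for MMS at 30 min, 13 to 14 at 60 min, 1 to 1 for the change with time in HU and 4 to 8 for that in MMS. A lone remaining sample was assumed to vary like the other groups. At 30 min alone, added after the data were seen, 0 members differed between strains in MMS and CYC7 stood at 0.11, the only reversal. Of 602 values of single named results over 18 settings, 529 stayed on their side of the threshold with their direction and 72 no longer passed. Standard errors treat the times of a replicate as samples and may be too small. Signal over background was not analysed here.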
